A study of Mus musculus with 80 samples.

Results

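Metabotropic glutamate receptors are the G-protein-coupled receptors for glutamate, the main excitatory transmitter of the brain. The 6 genes described here, Grm2, Grm3, Grm4, Grm5, Grm7 and Grm8, were taken by symbol from a count table of 27179 mouse genes. The other genes of the family are not analysed here. RNA was measured in the hypothalamus, cerebellum, hippocampus, neocortex and amygdala of 16 age-matched C57BL/6 females (C57BL/6J in the study's methods), 8 virgin and 8 primiparous (with a first litter). Primiparous females were paired with 1 male at 8 weeks of age for 2 weeks, raised their litter and were sampled after weaning, 3 weeks later by the labels and more than a month later by the study's methods. Virgin females lived together and never met a male, so the effects of litter, mating and male company cannot be told apart. Each library came from a single animal. The whole hypothalamus was used, and the left side of the other regions. Counts were held for 77 libraries, 7 or 8 per region and state, and 3 further libraries are not analysed here.

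These receptors fall into 3 groups by sequence and coupling. Group I, here Grm5, couples to Gq, activates phospholipase C and calcium release, and sits mainly around the postsynaptic site, where it is tied to Homer and Shank scaffolds and can start endocannabinoid release. Group II (Grm2 and Grm3) and group III (Grm4, Grm7 and Grm8) couple to Gi/o, lower cyclic AMP and mostly restrain transmitter release from axon terminals. Grm3 is also well known from astrocytes, and it responds to the peptide N-acetylaspartylglutamate (NAAG). Grm4 is known from the granule cells of the cerebellum and their parallel fibres, and Grm7 from the presynaptic active zone, where it has a low affinity for glutamate.

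On GRCm38 (mm10), Grm2 lies on the minus strand of chromosome 9 (106643095 to 106656082), Grm3 on the minus strand of chromosome 5 (9485541 to 9725170) and Grm4 on the minus strand of chromosome 17 (27422387 to 27521403). Grm5 lies on the plus strand of chromosome 7 (87584168 to 88134907), Grm7 on the plus strand of chromosome 6 (110645581 to 111567230) and Grm8 on the minus strand of chromosome 6 (27275119 to 28135178). Exons of Grm2 overlap those of Gm28111 on the opposite strand, those of Grm7 overlap Gm20387 on the opposite strand, and Grm8 holds the microRNA gene Mir592 on its own strand. The sources used here do not state whether reads were counted by strand, so reads of Grm2 or Grm7 and of these opposite-strand genes may be mixed.

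RefSeq promoter sequences, 250 bases before to 50 after the transcript start on GRCm38.p6, were matched for 4 of the 6 genes (Grm2, Grm3, Grm7 and Grm8). Those of the group II pair are shown because these receptors share a group and a coupling but had unlike regional orders. Capitals mark GC boxes, read as the letters GGGCGG on either strand.
Grm2, chr9:106656060-106656359, minus strand: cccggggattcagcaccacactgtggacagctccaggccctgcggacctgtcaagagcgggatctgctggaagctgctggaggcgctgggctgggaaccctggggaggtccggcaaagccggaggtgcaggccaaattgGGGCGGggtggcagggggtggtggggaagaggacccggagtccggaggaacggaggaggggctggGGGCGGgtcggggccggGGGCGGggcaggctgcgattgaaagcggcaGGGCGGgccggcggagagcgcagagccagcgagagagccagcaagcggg
Grm3, chr5:9725303-9725602, minus strand: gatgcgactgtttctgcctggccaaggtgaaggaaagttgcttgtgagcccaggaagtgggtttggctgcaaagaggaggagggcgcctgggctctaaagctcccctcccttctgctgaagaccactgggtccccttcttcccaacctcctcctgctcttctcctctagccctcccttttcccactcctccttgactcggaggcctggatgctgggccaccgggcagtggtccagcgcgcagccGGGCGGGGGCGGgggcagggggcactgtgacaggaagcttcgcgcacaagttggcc
The Grm2 window had 72% GC, 22 CpG and 4 GC boxes. The Grm3 window had 63.7% GC, 11 CpG and 2 GC boxes, which lie side by side. Over all 32851 RefSeq promoters the median was 52.7% GC, and 35.7% held a GC box. No window of the 4 genes held the full cyclic AMP response element (TGACGTCA, in 1.79% of all promoters) or the letters TATAAA (in 13.6%), both searched on either strand. These matches describe letters only and say nothing of whether a factor binds.

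Libraries held 7959192 to 37871854 counted reads, and the 6 genes together ranged from 58 reads (Grm5, cerebellum) to 12461 reads (Grm5, hippocampus) in a library. Levels are given as CPM, the reads of a gene relative to all counted reads of its library, scaled with TMM factors. All 6 genes passed the filter on low levels (5 CPM or more in 8 or more libraries), as did 13016 genes in all. Marker genes set the hypothalamus, cerebellum and hippocampus apart. The summed level of 5 hypothalamic peptide genes was 535 to 906 CPM in the hypothalamus and at most 31.7 CPM elsewhere, and that of 4 granule cell genes was 2470 to 3415 CPM in the cerebellum. That of 3 dentate granule cell genes was 176 to 348 CPM in the hippocampus and at most 51.2 CPM elsewhere. The neocortex was not set apart, since the forebrain excitatory list (1390 to 1938 CPM) overlapped with that of the hippocampus (1492 to 1757 CPM). The summed level of the 2 amygdala markers (30.4 to 79.6 CPM in the amygdala) overlapped with the hippocampus (31.9 to 40.7 CPM), so it does not check that dissection. Rspo2 of them was lower in the amygdala (mean 10.8 CPM) than in the hippocampus (21.8 CPM). Cyp26b1, the other, was 25.1 to 61.7 CPM in the amygdala. It was at most 18.4 CPM in the hippocampus, 9.24 CPM in the neocortex and 5.68 CPM in the hypothalamus, but overlapped with the cerebellum (19.0 to 28.0 CPM). The primiparous hippocampus library of animal 413 stood apart, with 274 CPM of the granule cell genes against 24.9 to 34.4 CPM in virgin hippocampus and Gabra6 at 56.3 CPM against at most 1.86 CPM in the other 14 hippocampus libraries. The hippocampal Grm4 levels and differences below are given with and without it, as is the count of interactions against the hippocampus. The summed level of the 4 choroid plexus genes ran from 60.6 to 3610 CPM in virgin and from 56.7 to 4016 CPM in primiparous hippocampus. In the cerebellum it ran from 20.8 to 1150 CPM (median 35.8 CPM) in virgin and from 31.9 to 3392 CPM (median 72.2 CPM) in primiparous libraries. Its part in the differences between states was not tested. These are bulk tissues, so fewer cells of a type and less RNA per cell cannot be told apart.

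Regions were compared with edgeR's quasi-likelihood test over all libraries, each region taken as the mean of its virgin and primiparous groups. Of the 60 tests of 6 genes in 10 pairs of regions, 51 passed the threshold of 0.05 after Benjamini-Hochberg adjustment over all genes. In the same pairs most genes of the brain differed too. All 6 receptors passed between hypothalamus and cerebellum (81.1% of all genes), hypothalamus and hippocampus (73%), cerebellum and neocortex (79.9%), cerebellum and amygdala (80.2%), and hippocampus and neocortex (67%). Between cerebellum and hippocampus (78.7% of all genes) and between neocortex and amygdala (62.5%) 5 of 6 passed. Between hypothalamus and amygdala (71%) and between hippocampus and amygdala (58.7%) 4 of 6 passed, and between hypothalamus and neocortex (77.7%) 3 of 6 passed. With 6 receptors such counts say little beside these shares, and the direction and size for each receptor are given below.

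**Figure D1:**
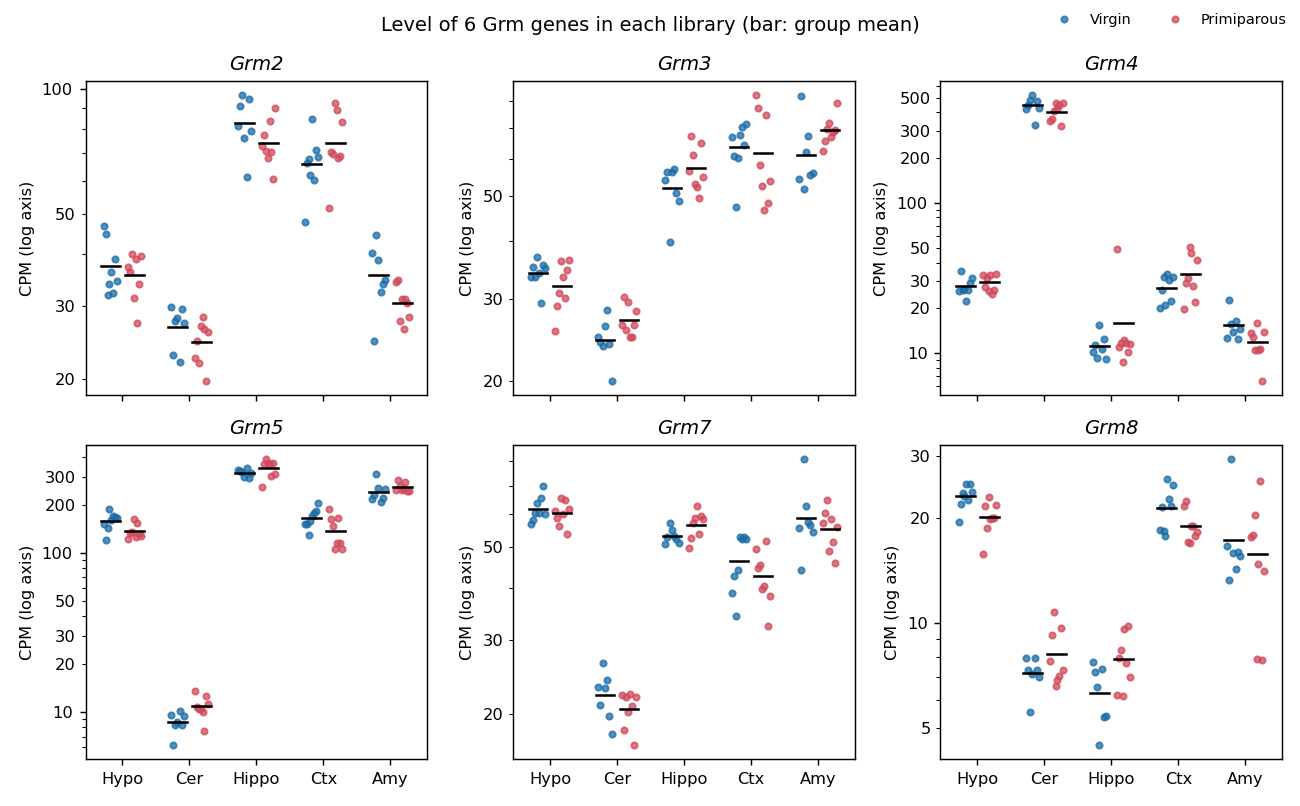
Level of each receptor gene in CPM (log axis) in every library, by region (Hypo hypothalamus, Cer cerebellum, Hippo hippocampus, Ctx neocortex, Amy amygdala) and state, with a bar at the group mean. Grm4 stands at 326 to 519 CPM in the cerebellum and at most at 50.7 CPM elsewhere, while Grm5 is at 6.24 to 13.6 CPM in the cerebellum and at least at 106 CPM elsewhere.

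Grm5, the group I receptor, was highest in the hippocampus and lowest in the cerebellum. In the hippocampus it had 259 CPM in the lowest library, 328 CPM in the median and 386 CPM in the highest (n = 15). In the amygdala these were 208, 249 and 313 CPM (n = 15), and in the cerebellum 6.24, 10.1 and 13.6 CPM (n = 15). No library of the cerebellum came near those of another region, and the hippocampus and amygdala overlapped at their edges. The neocortex (106, 155 and 206 CPM, n = 16) and the hypothalamus (120, 147 and 188 CPM, n = 16) covered the same range. The means were 330 ± 34.7 CPM (SD) in the hippocampus and 9.82 ± 1.88 CPM in the cerebellum, a 33.6-fold span. Every step in the order hippocampus, amygdala, neocortex and cerebellum passed the test, with hippocampus above amygdala by 0.39 on the log2 scale (standard error 0.0685, adjusted p = 7.47e-07, edgeR). The hypothalamus and neocortex could not be separated (log2 difference −0.05, standard error 0.0666, adjusted p = 0.536, edgeR), but with the animal as a block and a length and GC correction the hypothalamus was lower (−0.27, adjusted p = 1.02e-06).

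The group II receptors differed less between regions, 3.06-fold for Grm2 and 2.52-fold for Grm3. Grm2 was high in the hippocampus (60.5, 77.3 and 96.4 CPM in the lowest, median and highest library) and in the neocortex (47.7, 68.6 and 92.5 CPM). It was low in the hypothalamus (27.3, 36.2 and 46.7 CPM), the amygdala (24.7, 32.4 and 44.6 CPM) and the cerebellum (19.8, 26.4 and 29.9 CPM). Every hippocampus and neocortex library thus lay above every library of the other regions. Hippocampus exceeded neocortex by 0.16 on the log2 scale (standard error 0.0706, adjusted p = 0.0356, edgeR), a call that was lost with upper quartile scaling (adjusted p = 0.0818). Hypothalamus and amygdala did not pass (log2 difference 0.15, adjusted p = 0.0565, edgeR), but did in limma-voom (adjusted p = 0.0472), in DESeq2 (0.0496) and with upper quartile scaling (0.0151). This pair also passed, with a larger difference, with the animal as a block and a length and GC correction (0.30, adjusted p = 0.00019). Cerebellum was below amygdala (−0.36, adjusted p = 1.4e-05), a call lost with the animal as a block and a length and GC correction (−0.14, adjusted p = 0.0723).

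Grm3, the other group II receptor, was highest in the amygdala, where Grm2 was low. Its lowest, median and highest libraries were 51.7, 66.7 and 82.0 CPM in the amygdala, 46.7, 62.6 and 82.1 CPM in the neocortex, and 39.9, 54.8 and 67.0 CPM in the hippocampus. These regions overlapped widely, while the hypothalamus (25.6, 33.8 and 37.0 CPM) and the cerebellum (20.1, 25.8 and 30.4 CPM) lay below all of their libraries. Amygdala and neocortex could not be separated (log2 difference of neocortex over amygdala −0.05, standard error 0.0643, adjusted p = 0.467, edgeR). Hippocampus was below neocortex by a log2 difference of −0.20 (standard error 0.0641, adjusted p = 0.00461, edgeR). Within the neocortex the pair did not run together from library to library. The libraries of animals 418 and 421 were the highest for Grm2 (92.5 and 88.8 CPM) and among the lowest for Grm3 (52.5 and 46.7 CPM), and that of animal 413 was the highest for Grm3 (82.1 CPM) and next to the lowest for Grm2 (51.7 CPM). The log2 ratio of the per-length levels of Grm2 to Grm3 averaged −0.17 in the hippocampus (SD 0.34, n = 15), −0.52 in the neocortex (SD 0.45, n = 16), −0.55 in the hypothalamus (SD 0.23, n = 16), −0.71 in the cerebellum (SD 0.27, n = 15) and −1.68 in the amygdala (SD 0.41, n = 15). The range in the amygdala (−2.41 to −0.90) did not meet that in the hippocampus (−0.79 to 0.59).

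Grm4, a group III receptor, was highest in the cerebellum, where Grm5 was lowest. In the cerebellum it had 326 CPM in the lowest library, 430 CPM in the median and 519 CPM in the highest. The neocortex (19.6, 30.1 and 50.7 CPM) and the hypothalamus (22.1, 27.0 and 35.0 CPM) formed a middle range, and the amygdala had 6.57, 13.7 and 22.5 CPM. All cerebellar libraries lay far above all others. The cerebellum exceeded the neocortex by 3.81 on the log2 scale (standard error 0.149, adjusted p = 1.65e-35, edgeR), and the neocortex exceeded the amygdala by 1.16 (standard error 0.152, adjusted p = 6.95e-10). Hypothalamus and neocortex could not be separated (log2 difference −0.07, standard error 0.141, adjusted p = 0.64, edgeR). In the hippocampus 14 libraries held 8.75 to 15.5 CPM and that of animal 413 held 49.4 CPM. With it, hippocampus and amygdala were level (log2 difference −0.03, adjusted p = 0.888, edgeR), and without it the hippocampus was lower (−0.29, adjusted p = 0.0242), with a mean of 11.1 ± 1.69 CPM (SD, n = 14) in place of 13.6 ± 10.03 CPM. The same library was high in all 4 granule cell genes, including Cbln3 (119 CPM against at most 4.15 CPM), and in the Purkinje cell gene Car8 (231 CPM against at most 14.7 CPM). Their part in its Grm4 level was not tested. It also had the lowest hippocampal Grm5 (259 CPM against 295 to 386 CPM).

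Grm7, the group III receptor of the active zone, was the most even of the 6 outside the cerebellum. The lowest, median and highest libraries were 53.6, 60.3 and 69.9 CPM in the hypothalamus, 44.1, 56.6 and 80.9 CPM in the amygdala, and 49.7, 53.7 and 62.7 CPM in the hippocampus. The neocortex was lower (32.4, 44.3 and 52.8 CPM) and the cerebellum lowest (16.9, 21.9 and 26.4 CPM). The cerebellum did not overlap with any region, and every hypothalamus library lay above every neocortex library, while the remaining pairs of regions overlapped. Neither hypothalamus and amygdala (log2 difference 0.10, standard error 0.0597, adjusted p = 0.132, edgeR) nor hippocampus and amygdala (−0.06, standard error 0.0605, adjusted p = 0.437) could be separated, although the first pair passed with upper quartile scaling (0.14, adjusted p = 0.0259). Hypothalamus exceeded hippocampus by 0.16 (adjusted p = 0.0159, edgeR), a call lost with no filter on low counts (0.12, adjusted p = 0.103). Hypothalamus exceeded neocortex by 0.46 (standard error 0.0588, adjusted p = 8.57e-11, edgeR).

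Grm8, the remaining group III receptor, had the lowest per-length level of the 6 in every region with all exons as the length, but not with the longest transcript in the cerebellum (above Grm5) and the amygdala (3.43 RPKM against 2.93 RPKM for Grm4). Its libraries held 15.7, 21.8 and 24.9 CPM (lowest, median and highest) in the hypothalamus, 16.9, 19.0 and 25.7 CPM in the neocortex and 7.83, 15.9 and 29.3 CPM in the amygdala. In the cerebellum they held 5.56, 7.33 and 10.7 CPM, and in the hippocampus 4.48, 7.24 and 9.82 CPM. The hypothalamus and neocortex thus lay above the cerebellum and hippocampus in every library, and the amygdala spread across both ranges. Its lowest amygdala libraries, of animals 427 (7.83 CPM) and 418 (7.90 CPM), reached the cerebellar range. Hypothalamus exceeded hippocampus by 1.61 on the log2 scale (standard error 0.104, adjusted p = 1.78e-24, edgeR). Neither hypothalamus and neocortex (log2 difference 0.09, adjusted p = 0.388, edgeR) nor cerebellum and hippocampus (0.12, adjusted p = 0.29) could be separated, although the second pair passed with the animal as a block and a length and GC correction (0.24, adjusted p = 0.025).

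To set receptors beside each other, levels were divided by exon length (RPKM, the CPM value per kilobase of all exons). The sum over the 6 genes was 89.9 ± 9.90 RPKM in the cerebellum, 78.5 ± 3.95 RPKM in the hippocampus, 66.2 ± 4.26 RPKM in the amygdala, 64.4 ± 6.50 RPKM in the neocortex and 50.005 ± 2.86 RPKM in the hypothalamus (SD over 15 or 16 libraries). In the cerebellum Grm4 alone was 78.5 ± 2.54% of that sum and Grm5 1.09 ± 0.314%. In the hippocampus Grm5 was 41.0 ± 3.09% and group II 43.3 ± 2.26%. The neocortex was the region of the highest group II share (54.2 ± 2.08%), of which Grm3 was 31.8 ± 3.70% and Grm2 22.4 ± 4.49%. In the amygdala Grm5 (36.9 ± 2.27%) and Grm3 (32.5 ± 4.31%) were foremost, and Grm2 was 10.2 ± 1.68%. The hypothalamus had the most even make-up, with 28.7 ± 2.97% for group I, 36.6 ± 2.62% for group II and 34.7 ± 1.86% for group III, and with the highest share of Grm7 (20.7 ± 1.25%). Exon lengths come from another annotation than the counting and are approximate. With the length of the longest transcript, Grm7 rather than Grm3 was next to Grm5 in the hypothalamus (14.5 against 10.9 RPKM), and Grm8 passed Grm5 in the cerebellum (1.604 against 1.22 RPKM). In the hypothalamus group III (6.22, 14.5 and 4.48 RPKM for Grm4, Grm7 and Grm8) then exceeded group II (7.74 and 10.9 RPKM). In the hippocampus Grm5 (41.0 RPKM) then exceeded group II (16.6 and 17.97 RPKM for Grm2 and Grm3). Which group led in both regions thus depended on the length used.

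**Figure D2:**
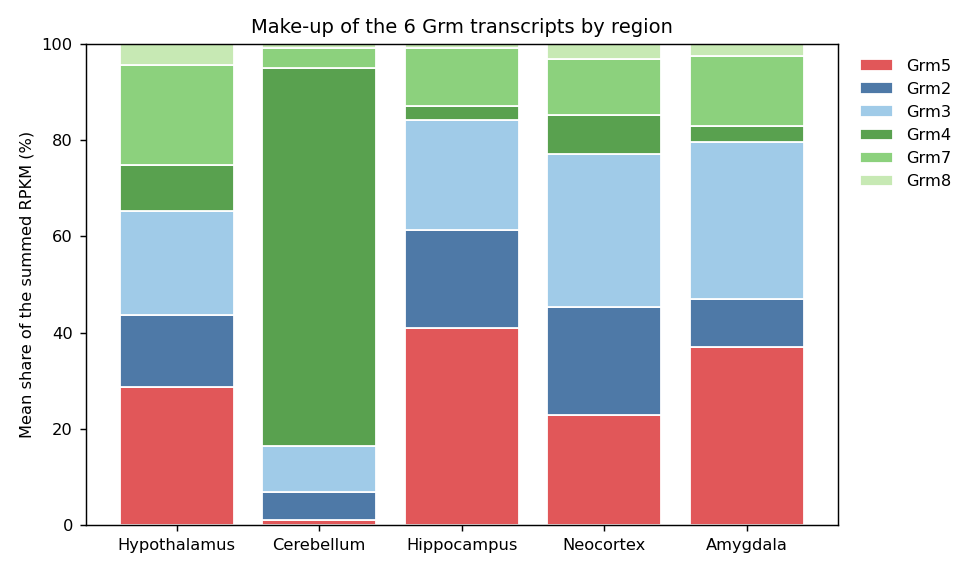
Mean share of each gene in the summed RPKM of the 6 receptor genes (percent), by region, over 15 or 16 libraries. Grm4 fills 78.5% of the cerebellar bar, while Grm5 reaches 41.0% in the hippocampus and Grm3 32.5% in the amygdala.

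The genes whose log2(CPM + 4) followed each receptor most closely over the 77 libraries were listed as a description, with no test. Libraries of 1 region lie together, so these coefficients mostly reflect the regional order. Grm5 was most like Creg2 (Pearson r = 0.993), Epha5, an ephrin receptor (0.991), and Scn3b, a sodium channel subunit (0.990). Grm4 was most like Ank1, an ankyrin (0.986), Chn2, a Rac GTPase-activating protein (0.979), and Epb41, a membrane skeleton protein (0.977). Creg2 fell from 251 CPM in the hippocampus to 9.74 CPM in the cerebellum, and Chn2 from 617 CPM in the cerebellum to 24.6 CPM in the hippocampus.

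Grm7 was most like Scn3a, a sodium channel subunit (0.966), Astn1, an astrotactin (0.966), and Col25a1, a membrane collagen (0.964). Grm3 was most like Zfp365 (0.961), Fam81a (0.950) and Tnfrsf19 (0.949). Each had higher means in amygdala, neocortex and hippocampus than in hypothalamus and cerebellum. Coefficients were lower for Grm2, with the transcription factor gene Pou3f1 (0.898), Alox12b (0.895) and Npnt (0.894), and for Grm8, with the sorting receptor gene Sorcs1 (0.905), Ankrd34c (0.890) and Grip2 (0.869). Between the receptors themselves r was −0.98 for Grm4 with Grm5, 0.91 for Grm5 with Grm7, and −0.01 for Grm2 with Grm8.

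The study asked whether gene expression still differs after reproductive experience, long after the pups are gone, so primiparous and virgin libraries were compared within each region. Only Grm5 in the hypothalamus passed the threshold, and it was lower in primiparous females. Virgin libraries held 120 CPM (lowest), 163 CPM (median) and 188 CPM (highest), and primiparous libraries 122, 131 and 164 CPM. The groups overlapped, and 7 of 8 primiparous libraries lay below the virgin mean. The means were 158 ± 20.5 CPM (SD, n = 8) and 136 ± 14.9 CPM (SD, n = 8), a log2 difference of −0.22 (standard error 0.0756, adjusted p = 0.0416, edgeR's quasi-likelihood test). This was 1 of 6 receptors, against 22.6% of all genes called in the hypothalamus (11.8% lower and 10.8% higher in primiparous females).

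The Grm5 call held in DESeq2 (adjusted p = 0.0295), with upper quartile scaling (0.0414) and with no filter (0.0452). It was lost, at much the same size, in limma-voom (log2 difference −0.21, adjusted p = 0.0622) and in 1 fit of all 10 groups (−0.21, 0.101). It was also lost after a per-library correction for GC content and the length of genes (log2 difference −0.04, adjusted p = 0.731). On leaving out each library in turn it was lost in 12 of 16 cases. Over all 16 the log2 difference ran from −0.27 to −0.18 and the adjusted p from 0.00353 to 0.0975. By the labels, 2 of 8 virgin but 7 of 8 primiparous females carry a 3-digit number and the others a 4-digit number, whose meaning is not stated. Within the 3-digit animals virgin and primiparous means were 136 and 138 CPM, and within the 4-digit animals 165 and 127 CPM, the last from 1 library. With this numbering as a covariate the log2 difference of Grm5 was −0.12 (adjusted p = 0.576, edgeR), and state and numbering can scarcely be told apart.

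Grm8 in the hypothalamus came closest of the rest. Virgin libraries held 19.5, 23.3 and 24.9 CPM and primiparous libraries 15.7, 19.9 and 22.9 CPM (lowest, median and highest). All 8 primiparous libraries lay below the virgin mean, although the ranges overlapped. Means were 23.0 ± 1.78 and 20.0 ± 2.20 CPM (SD, n = 8 each), a log2 difference of −0.20 (standard error 0.0798) that did not pass (adjusted p = 0.071, edgeR). It was −0.01 with the length and GC correction (adjusted p = 0.953) and −0.09 with the animal numbering as a covariate (adjusted p = 0.699). Within the 3-digit animals the means were 20.7 and 19.8 CPM, and within the 4-digit animals 23.7 and 21.7 CPM, for virgin and primiparous in turn. The other receptors had hypothalamic log2 differences of −0.07 (Grm2), −0.09 (Grm3), 0.09 (Grm4) and −0.04 (Grm7), with standard errors of 0.0562 to 0.0881 and adjusted p from 0.372 to 0.621 (edgeR).

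**Figure D3:**
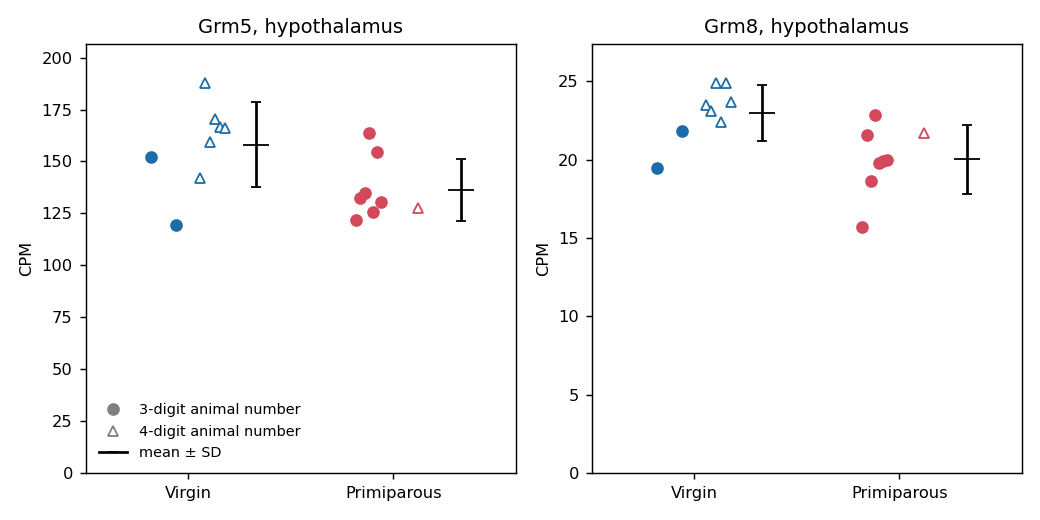
Hypothalamic Grm5 and Grm8 in CPM in each virgin and primiparous library, with circles for animals with 3-digit numbers, triangles for 4-digit numbers, and mean ± SD beside them (n = 8 each). The virgin mean of Grm5 is 158 CPM and the primiparous mean 136 CPM, and most virgin points are triangles while most primiparous points are circles.

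Of 54 marker genes tested for cell types and regions, the hypothalamus included, 4 were higher (Cspg4, Pcp2, C1ql2 and Ttr) and 4 lower (among them Slc1a3, Calb1 and Pmch) in primiparous hypothalamus, against 22.6% of all genes. Pcp2 (0 to 2.15 CPM) and Ttr (0.0878 to 6.09 CPM) were at or near 0 there and passed the filter through other regions, so their calls are of little weight. Slc1a3, an astrocyte glutamate transporter, differed by −0.19 on the log2 scale (edgeR, adjusted p = 0.0152). Pmch, the melanin-concentrating hormone gene of the lateral hypothalamus, differed by −0.56 (adjusted p = 0.0112). The summed level of the 4 thalamus markers, of neighbouring tissue, ran from 47.2 to 154 CPM in virgin and from 41.5 to 75.9 CPM in primiparous hypothalamus, and none of them passed the test. The 6 astrocyte markers summed to 2878 to 3544 CPM in virgin and 2672 to 3732 CPM in primiparous hypothalamus. The Purkinje cell list, with Calb1, summed to 392 to 476 CPM in virgin and 364 to 423 CPM in primiparous hypothalamus. Their part in the Grm5 and Grm8 differences was not tested.

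In the other regions no receptor passed the threshold in edgeR, limma-voom or DESeq2. In the cerebellum 0 of 6 were called, against 0.707% of all genes, with 2 receptors at an unadjusted p below 0.05, as were 19.5% of all genes. Grm5 was 8.65 ± 1.28 CPM in virgin (n = 7) and 10.8 ± 1.77 CPM in primiparous cerebellum (n = 8), a log2 difference of 0.33 (standard error 0.114, adjusted p = 0.134, edgeR), and Grm3 differed by 0.15 (standard error 0.0715, adjusted p = 0.25). In both cases the primiparous mean was higher, with 7 of 8 and 8 of 8 libraries above the virgin mean, although the ranges overlapped. Of the 54 marker genes tested, 3 were higher in primiparous cerebellum (1 each of the astrocyte, oligodendrocyte and microglia lists) and 0 lower in edgeR. The microglia list summed to 71.8 to 86.0 CPM in virgin and 84.4 to 107 CPM in primiparous cerebellum, and the oligodendrocyte list to 3776 to 5184 CPM and 4667 to 6668 CPM. The granule cell list lay the other way, at 2915 to 3415 CPM (median 3338 CPM) in virgin and 2470 to 3354 CPM (median 2879 CPM) in primiparous cerebellum, with none of its 4 genes called. Their part in the Grm5 and Grm3 differences and in the interactions was not tested.

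In the hippocampus, neocortex and amygdala 0 of 6 receptors were called, as was 0% of all genes, with 1, 1 and 2 receptors at an unadjusted p below 0.05, against 7.38%, 9.8% and 11.9% of all genes. In the hippocampus this was Grm8, with 6.31 ± 1.23 CPM in virgin (n = 7) and 7.85 ± 1.38 CPM in primiparous libraries (n = 8), a log2 difference of 0.32 (standard error 0.131, adjusted p = 0.641, edgeR). In the neocortex it was Grm5, with 166 ± 23.5 and 138 ± 31.6 CPM (n = 8 each), a log2 difference of −0.27 (standard error 0.124, adjusted p = 0.498). In the amygdala Grm4 had a log2 difference of −0.39 (standard error 0.158, adjusted p = 0.322) and Grm2 one of −0.22 (standard error 0.101, adjusted p = 0.394). The hippocampal difference of Grm4 was 0.50 (standard error 0.371) with the library of animal 413 and −0.02 (standard error 0.11) without it.

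**Figure D4:**
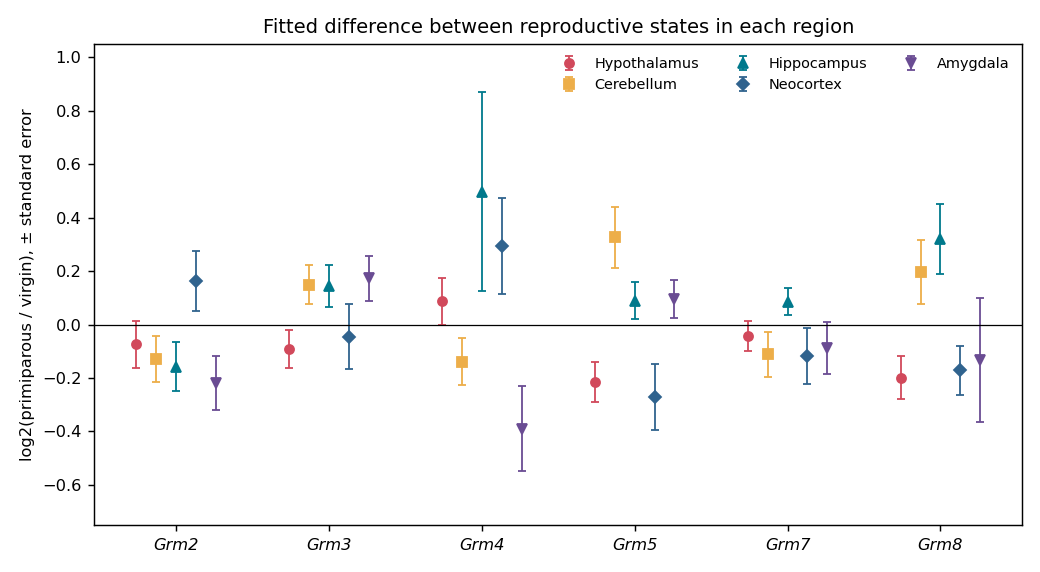
Fitted log2 difference (primiparous over virgin) of each receptor gene in each region, with its standard error. In the hypothalamus Grm5 (−0.22) and Grm8 (−0.20) lie below 0, and in the cerebellum and hippocampus both lie above 0, while the long bar of Grm4 in the hippocampus includes the library of animal 413.

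To compare the effect of state across regions, an interaction was fitted as the hypothalamic log2 difference minus that of another region. All 4 comparisons share the hypothalamus libraries. Against the cerebellum 2 of 6 receptors passed (15.5% of all genes). These were Grm5 (−0.55, standard error 0.134, adjusted p = 0.00662, edgeR) and Grm8 (−0.41, standard error 0.14, adjusted p = 0.0432). Against the hippocampus the same 2 receptors passed (17.2% of all genes), Grm5 at −0.32 (standard error 0.111, adjusted p = 0.0443) and Grm8 at −0.53 (standard error 0.15, adjusted p = 0.0146). Without the hippocampus library of animal 413, a fit added after seeing the data, 2 of 6 receptors passed. Against the amygdala (18.2% of all genes) only Grm5 passed (−0.31, standard error 0.109, adjusted p = 0.0438). Against the neocortex 0 of 6 receptors and 0% of all genes passed in edgeR, as in limma-voom, and no receptor had an unadjusted p below 0.05. Regions of the same animal are paired, and with the animal as a replicate block Grm5 kept its call against the cerebellum (adjusted p = 0.0139) and Grm8 against the hippocampus (0.0392). The block ended the call of Grm8 against the cerebellum, at much the same size (−0.38, adjusted p = 0.104). It also ended those of Grm5 against the hippocampus (−0.29, 0.0824) and the amygdala (−0.28, 0.0818), again at much the same size. Grm4 gained a call against the amygdala (0.48 on the log2 scale, 0.0457). With the block and the length and GC correction Grm5 against the cerebellum alone passed (−0.39, adjusted p = 0.0477). Grm8 was then −0.21 against the cerebellum (0.462) and −0.26 against the hippocampus (0.44), and Grm5 was −0.06 against the hippocampus (0.814) and −0.03 against the amygdala (0.907). With the animal numbering as a covariate in each region no receptor passed, and the lowest adjusted p of the 5 calls was 0.304. Grm5 was then −0.51 against the cerebellum (standard error 0.176), −0.25 against the amygdala (0.141) and −0.15 against the hippocampus (0.141), and Grm8 was −0.20 against the cerebellum (0.175) and −0.24 against the hippocampus (0.179).

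The partners of these receptors were followed in 53 genes of 6 lists written from general knowledge, and described by counts only. In the hypothalamus 10 were called higher and 11 lower in primiparous females, where 10.8% of all genes were called higher and 11.8% lower. The counts of the lists below are to be read against those shares. In the cerebellum, hippocampus, neocortex and amygdala 0 of 53 were called in edgeR (11, 1, 7 and 9 at an unadjusted p below 0.05, against 19.5%, 7.38%, 9.8% and 11.9% of all genes, and 1 in the amygdala by DESeq2). Of the 11 genes of the Gq pathway used by Grm5, 2 were higher and 2 lower, with a median log2 difference of −0.01 against 0.01 over all genes. Gna11, a Gq family subunit, and Dgkz, a diacylglycerol kinase (105 ± 10.04 to 123 ± 14.1 CPM, log2 difference 0.22, adjusted p = 0.0194, edgeR), were higher. The phospholipase genes Plcb1 (121 ± 6.87 to 105 ± 13.5 CPM, log2 difference −0.20, adjusted p = 0.0285) and Plcb4 were lower. Gnaq had the highest per-length level of the list (41.5 RPKM) and did not pass (adjusted p = 0.0989).

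Of the 10 Homer and Shank scaffold genes, 3 were higher (Shank1, Shank2 and Cyth2) and 1 lower (Homer2), and the median was 0.13. Cyth2, an exchange factor for Arf GTPases, went from 41.8 ± 3.31 to 49.8 ± 3.30 CPM (log2 difference 0.25, adjusted p = 0.00611, edgeR). Homer2, which links group I receptors to the scaffold, went from 53.6 ± 5.48 to 46.0 ± 5.14 CPM (log2 difference −0.23, adjusted p = 0.0291). Ncdn, neurochondrin, had the highest level (244 RPKM) and did not pass. Of the 3 endocannabinoid genes, Cnr1, the CB1 receptor, fell from 122 ± 12.6 to 103 ± 10.6 CPM (log2 difference −0.25, adjusted p = 0.012) and had the highest level (17.4 RPKM).

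Of the 14 Gi/o partners of the group II and III receptors, 3 were higher (Gnai2, Gnaz and Pick1) and 2 lower (Gnai1 and Gnai3), with a median of 0.04. Pick1, a PDZ protein that binds Grm7, went from 43.6 ± 3.20 to 52.7 ± 5.003 CPM (log2 difference 0.27, adjusted p = 0.00598, edgeR). Gnai3 went from 43.0 ± 1.83 to 36.5 ± 3.55 CPM (log2 difference −0.24, adjusted p = 0.00971), and Gnai2 had the highest level (80.2 RPKM). Of the 5 desensitization genes, 2 were higher, the kinase gene Grk2 and the arrestin gene Arrb2 (38.3 ± 3.22 to 45.9 ± 4.73 CPM, log2 difference 0.25, adjusted p = 0.0117), and 1 was lower. This was Rgs4, which shortens G-protein signals (197 ± 13.9 to 166 ± 20.2 CPM, log2 difference −0.24, adjusted p = 0.00975), also the gene of the highest level in its list (58.5 RPKM).

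Of the 10 genes that supply and clear glutamate and NAAG, 4 were lower and none higher, with a median of −0.13. Folh1 encodes the peptidase that cleaves NAAG, and it fell from 21.0 ± 1.87 to 13.1 ± 2.24 CPM (log2 difference −0.68, standard error 0.0985, adjusted p = 0.000465, edgeR). Slc1a2, the main astrocyte glutamate transporter and the gene of the highest level (119 RPKM), fell from 1652 ± 89.7 to 1477 ± 132 CPM (log2 difference −0.16, adjusted p = 0.0231). Its relative Slc1a3, which is also among the astrocyte markers, and Slc17a6, the vesicular glutamate transporter of the hypothalamus, were the other two. Slc17a6, named after its values were seen, fell from 373 ± 36.0 to 286 ± 27.7 CPM (log2 difference −0.38, adjusted p = 0.00098). With the length and GC correction 1 of the 53 genes was called higher, Pick1 (log2 difference 0.21, adjusted p = 0.0388), and 3 were called lower. These were Gnao1 (−0.16, 0.0121), which was not called without the correction, Folh1 (−0.44, 0.00605) and Slc17a6 (−0.20, 0.00764). With the animal numbering as a covariate none was called. The lowest adjusted p was then that of Folh1 (log2 difference −0.56, adjusted p = 0.0748), and Slc17a6 was −0.25 (0.147).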

How the data were processed

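PolyA RNA from 5 brain regions of 16 mice was sequenced as single-end reads. Per the submitters' processing notes and the study's methods, the authors used CASAVA, HISAT2 on mm10, featureCounts, edgeR and limma. The deposited counts are raw reads per gene, and they were used as deposited for every result. The authors also deposited log2 values. These equalled log2(count / size factor + 4) to within 5e-05 for the genes of that table, and served only to name 11939 genes. Libraries of a region were sequenced together, so region and sequencing pool cannot be told apart.

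The filter kept 13016 of 27179 genes, those that reached 5 CPM in 8 or more libraries. Primiparous and virgin libraries were compared within each region by edgeR 4.0.16 (R 4.3.3) with TMM scaling, a robust quasi-likelihood test and Benjamini-Hochberg adjustment over all genes kept, with a threshold of 0.05. Regions were compared in 1 fit of 10 groups, and interactions in fits of 4 groups. Each library is a mouse, so p-values measure the spread between animals, except that regions of 1 animal are not independent. Equal animal numbers mark the same animal across regions. The median correlation of deviations was 0.0119 to 0.077 for the same animal and −0.0109 to −0.0027 for different animals over 10 pairs of regions, so the animal was used as a block in an alternative fit.

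RPKM used GENCODE exon lengths on GRCm38. Alternatives were limma-voom (limma 3.58.1), DESeq2 1.42.0, upper quartile scaling, no filter, leaving out each library, the animal numbering as a covariate, and a spline correction (4 degrees of freedom) for length and GC content, known for 97.1% of genes kept. On simulated data with 200 genes changed by a log2 difference of 1, 95.5% were recovered for the hypothalamic comparison, 98% for hippocampus against amygdala and 89% for the interaction of hypothalamus and cerebellum, each over 13016 genes. Recovery of smaller differences, such as the −0.22 of hypothalamic Grm5, was not tested. Receptors and lists were chosen with earlier results of these data known. From each list the called genes with the highest and lowest log2 difference and the gene of the highest level are given with values, and for each receptor the 3 genes of highest correlation. Other called genes are named without values, except where stated. Spike-in controls are not analysed here.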

Additional observations from a re-analysis of the deposited data

Results flagged for a closer look

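Within the 60 groups of 7 or 8 libraries (6 receptors, 5 regions and both states), 6 groups held a library far from the others, where chance flags about 1 in 20 groups. Among virgin females, Grm3 was 29.5 CPM in the hypothalamus of animal 4489 (next lowest 33.5 CPM) and 47.4 CPM in the neocortex of animal 4486 (next lowest 60.1 CPM). Animal 4486 was also apart for Grm8, at 29.3 CPM in the amygdala (next highest 16.6 CPM) and at 5.56 CPM in the cerebellum (next lowest 6.99 CPM). Grm4 was 22.5 CPM in the amygdala of virgin animal 409 (next highest 16.4 CPM) and 49.4 CPM in the hippocampus of primiparous animal 413 (next highest 12.2 CPM). Of the 15 amygdala libraries, that of animal 4486 had the highest summed level of the 2 amygdala markers (79.6 CPM) and of the forebrain excitatory (1769 CPM) and cerebellar granule cell lists (29.5 CPM). It had the lowest of the astrocyte (2843 CPM), oligodendrocyte (1664 CPM), oligodendrocyte precursor (130 CPM), microglia (240.2 CPM) and choroid plexus lists (9.89 CPM). That of animal 409 had the highest of the astrocyte (4927 CPM), oligodendrocyte (4168 CPM), dentate granule cell (22.7 CPM) and medium spiny neuron lists (356 CPM). It had the lowest of the cerebellar granule cell list (9.43 CPM). The part of these levels in Grm8 and Grm4 was not tested.

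Of 24 interaction tests, 5 passed after adjustment in edgeR, against 15.5% (cerebellum), 17.2% (hippocampus), 0% (neocortex) and 18.2% (amygdala) of all genes. The hypothalamic difference between states minus that of the cerebellum was −0.55 for Grm5 (adjusted p = 0.00662) and −0.41 for Grm8 (adjusted p = 0.0432). Minus that of the hippocampus it was −0.32 for Grm5 (adjusted p = 0.0443) and −0.53 for Grm8 (adjusted p = 0.0146). Minus that of the amygdala it was −0.31 for Grm5 (adjusted p = 0.0438). With the animal as a block, 3 of the 5 did not pass, at much the same size. These were Grm8 against the cerebellum (−0.38, adjusted p = 0.104) and Grm5 against the hippocampus (−0.29, 0.0824) and the amygdala (−0.28, 0.0818).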

How the results depend on the processing

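The number of receptors called between states in the hypothalamus was 1 in edgeR and 0 with limma-voom, with the animal numbering as a covariate, with the length and GC correction and in 1 fit of all 10 groups, and it ranged from 0 to 2 on leaving out each library. It was 2 without primiparous animal 418, where Grm8 was called too (adjusted p = 0.0286). Without virgin animal 405 the 1 call was Grm8 (0.0491) in place of Grm5 (0.0533). The cause was not tested. In the cerebellum, hippocampus, neocortex and amygdala it stayed at 0 in edgeR, limma-voom and DESeq2. Over all genes the hypothalamic count was 2939, against 3 with the numbering and 385 with the length and GC correction. The cerebellar count was 92, against 505 in DESeq2, 395 with that correction and 0 with the numbering. In the amygdala it was 0, against 95 in DESeq2, 14 with the numbering and 142 in 1 fit of all 10 groups. In the hippocampus and neocortex it was 0, against 12 and 4 in DESeq2 and 6 in each in that fit.

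When each animal was taken as a replicate block, the interaction against the cerebellum had 1 receptor called in place of 2, and that against the hippocampus 1 in place of 2. With the block and the length and GC correction these were 1 and 0, and the interaction against the amygdala had 0 in place of 1. With the numbering in each region, added after seeing the data, all 3 were 0. In limma-voom the interaction against the hippocampus had 1 and that against the amygdala 2. Over all genes the interaction counts of 2015 (cerebellum), 2243 (hippocampus) and 2373 (amygdala) were 507, 68 and 93 with the block and the correction, and 0, 1 and 470 with the numbering. With the block alone that against the hippocampus was 1449. Between regions 51 of 60 calls were made, and no count of a pair moved by more than 1.5 times under any alternative run, the block included.

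Of 1194 single-gene log2 differences under the alternatives, 1150 kept their side of the threshold, 32 lost a call and 12 gained one. Of the levels per length, 18 moved with the longest transcript as the length and 12 did not. No called difference changed sign, while 23 of 1194 log2 differences that were called in neither fit did. Among them hippocampal Grm4 went from 0.50 to −0.02 without animal 413, and on leaving out each library amygdala Grm8 ranged from −0.27 to 0.04, amygdala Grm7 from −0.15 to 0.01 and neocortex Grm3 from −0.10 to 0.02. The fewest reads in a library were 58 for Grm5, in the cerebellum, and 68 for Grm8, and how far depth limits their tests was not tested.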
